A study of Mus musculus with 30 samples.

Results

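The genes described here are 10 of the 24033 gene symbols kept from the count table: Trp53, which encodes the transcription factor p53, its inhibitor Mdm2, and the stress-induced genes Cdkn1a, Gadd45a, Gadd45b, Gadd45g, Ccng1, Btg2, Plk2 and Plk3. They were taken by symbol for their known place in the p53 pathway. All 10 were among the 16621 genes that passed the filter on low counts. RNA was measured in 30 libraries of sorted mouse retinal ganglion cells, the neurons that send their axons into the optic nerve. Every animal was of the LSL-Cas9-GFP; Vglut2-Cre genotype, so Cas9 was available wherever the Vglut2 promoter had driven Cre, and every retina received AAV2 with sgRNAs marked by mCherry. In the SSRP1KO groups the sgRNAs were against Ssrp1, a subunit of the histone chaperone FACT. In the NT groups they were non-targeting. Each of the 2 arms was sampled before injury (no crush) and on days 1, 2, 3 and 4 after optic nerve crush (1dpc to 4dpc), for 10 groups with 3 libraries each, numbered 3 to 5 in SSRP1KO 2dpc and 1 to 3 elsewhere. The age and sex of the animals are not given in the labels used here. Live cells were sorted on CD90.2, GFP or mCherry, alone or in combination, so a sorted cell did not have to carry the sgRNA vector. Whether the 3 libraries are separate animals is not said in the labels, so the p-values speak of the spread among libraries, some of which may be technical.

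The p53 protein is kept scarce in unstressed cells by Mdm2, a ubiquitin ligase that marks it for degradation and that is itself encoded by a p53 target gene. After DNA damage and other stresses p53 accumulates, mostly through its protein rather than its mRNA, and switches on genes that halt the cell cycle, repair DNA or start cell death. Cdkn1a, which encodes the cyclin-dependent kinase inhibitor p21, and the Gadd45 genes are classic members of this response, but several of them are also induced without p53 by stress kinases and ATF family factors. Retinal ganglion cells no longer divide, and after optic nerve crush most of them degenerate over the following weeks.

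The sequence just before the transcription start is shown for 5 of the genes, so that motif matches can be read in their context. Cdkn1a and Mdm2 have matches to a p53 consensus decamer, Gadd45g to a C/EBP-ATF response element, and Btg2 and Plk2 to a full cyclic AMP response element. The sequences are from RefSeq on GRCm38.p6, 5′ to 3′ on the strand of the gene, from 250 bases before the annotated start and without annotated exon bases. Capitals mark the matches to the motifs searched. Cdkn1a lies at chr17:29090976-29100727 on the plus strand, with 4 merged exon blocks, and its window is chr17:29090729-29090975. Mdm2 lies at chr10:117688875-117710758 on the minus strand and its window is chr10:117710759-117711008. Gadd45g lies at chr13:51846678-51848468 on the plus strand and its window is chr13:51846425-51846674. Btg2 lies at chr1:134075170-134079120 on the minus strand and its window is chr1:134079156-134079405. Plk2 lies at chr13:110395046-110400844 on the plus strand and its window is chr13:110394794-110395043.
Cdkn1a: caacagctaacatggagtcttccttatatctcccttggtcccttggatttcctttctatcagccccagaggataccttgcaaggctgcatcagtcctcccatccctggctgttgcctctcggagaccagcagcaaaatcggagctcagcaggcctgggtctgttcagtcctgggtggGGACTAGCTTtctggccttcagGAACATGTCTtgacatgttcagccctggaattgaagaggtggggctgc
Mdm2: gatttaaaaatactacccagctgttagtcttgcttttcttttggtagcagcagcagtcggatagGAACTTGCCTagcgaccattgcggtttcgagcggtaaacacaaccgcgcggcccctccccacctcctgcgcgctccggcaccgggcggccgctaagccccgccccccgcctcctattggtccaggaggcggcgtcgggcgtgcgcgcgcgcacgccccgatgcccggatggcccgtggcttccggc
Gadd45g: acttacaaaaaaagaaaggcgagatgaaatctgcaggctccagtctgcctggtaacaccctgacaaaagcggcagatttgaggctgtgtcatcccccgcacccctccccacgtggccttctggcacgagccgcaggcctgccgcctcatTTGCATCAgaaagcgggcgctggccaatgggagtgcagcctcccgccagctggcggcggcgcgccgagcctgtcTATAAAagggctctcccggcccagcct
Btg2: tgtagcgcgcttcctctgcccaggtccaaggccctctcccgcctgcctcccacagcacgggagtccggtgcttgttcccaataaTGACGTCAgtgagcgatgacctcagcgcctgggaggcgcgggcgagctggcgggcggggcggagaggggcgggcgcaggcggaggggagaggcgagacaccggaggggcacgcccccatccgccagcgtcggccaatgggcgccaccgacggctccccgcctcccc
Plk2: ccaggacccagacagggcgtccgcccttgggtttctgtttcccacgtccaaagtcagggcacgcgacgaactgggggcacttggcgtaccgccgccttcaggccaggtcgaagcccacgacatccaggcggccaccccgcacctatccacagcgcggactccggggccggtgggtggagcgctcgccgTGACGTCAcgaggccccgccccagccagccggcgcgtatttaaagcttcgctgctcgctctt

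In the Cdkn1a window the p53 decamer matched at 2 places, GGACTAGCTT from position -73 and GAACATGTCT from position -51, counted in bases before the RefSeq start. In the Mdm2 window it matched once, as GAACTTGCCT from position -186. Of the 10 genes, 5 had the decamer in the 250 bases (Cdkn1a, Gadd45a, Trp53, Mdm2 and Ccng1), while 7.12% of all 32817 promoter windows had it. The match of Gadd45a, GGGCTAGCCC from position -40, lies inside the annotated first exon, so that window is not printed. The cyclic AMP response element TGACGTCA, which binds CREB and ATF family dimers, was in 2 of the 10 windows, Btg2 at -166 and Plk2 at -62, against 1.55% of all windows. The C/EBP-ATF response element TGATGNAA, bound by Atf4 and its partners, was in the Gadd45g window alone, as TTGCATCA read on the plus strand at -101, against 3.45% of all windows. The AP-1 site TGANTCA, bound by Jun and Fos dimers, was in 0 of the 10 windows, against 6.75% of all windows. TATAAA was found in 3 of the 10 windows, against 12.4% of all windows. The matches were Gadd45g at -27, Gadd45b at -46 and, on the minus strand, Trp53 at -248. Both strands were searched, and no motif overlapped another in the printed windows. A match says only that these letters are present. The second RefSeq start of Cdkn1a had no match and lies in an annotated exon.

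The targeted gene Ssrp1 was lower in SSRP1KO than in NT libraries over the 5 times, with a mean difference of -0.89 ± 0.10 log2 units (SE, adjusted p = 2.11e-06). It was lower at 1dpc, 3dpc and 4dpc and missed the threshold without crush, at -0.28 ± 0.23 (adjusted p = 0.522), and at 2dpc, at -0.74 ± 0.23 (adjusted p = 0.111). Its level went against the label in 2 libraries: the library labelled SSRP1KO no crush replicate 3 had 66.9 CPM, inside the 61.0 to 67.9 CPM of NT no crush, and the 39.0 to 45.4 CPM of SSRP1KO 2dpc were above the 36.1 CPM of the library labelled NT 2dpc replicate 3. NT 4dpc replicate 1, with 10888302 counts, was also low in Ssrp1 for its label. It had 50.6 CPM, against 97.9 and 92.2 CPM in the rest of its group and 41.7 to 48.0 CPM in SSRP1KO 4dpc. The libraries held between 9715972 and 34420978 counts and 15281 to 18504 genes with a count. In their median rank correlation with the other libraries of their group, SSRP1KO 2dpc replicate 5 (0.9324) and SSRP1KO no crush replicate 3 (0.9515) stood apart, below a cut of 0.9516. SSRP1KO no crush replicate 3 was only just below the cut, and NT 2dpc replicate 3 was just above it, at 0.9526. Transcripts of the X chromosome gene Xist and of Y-linked genes showed that the groups differ in the sex of the animals: summed Y-linked transcripts were at most 0.12 CPM in SSRP1KO no crush and 167 to 188 CPM in NT no crush, and at most 0.0938 CPM in SSRP1KO 4dpc and 0 to 76.6 CPM in NT 4dpc. The times of an arm differ in the same way: the sums were 172 to 201 CPM in SSRP1KO 1dpc, 224 to 228 in SSRP1KO 2dpc and 0.603 to 119 in SSRP1KO 3dpc, and 0.0473 to 48.0 CPM in NT 1dpc, 0.333 to 232 in NT 2dpc and 160 to 228 in NT 3dpc. Sex and crush, like sex and the sgRNAs, therefore cannot be fully told apart in these comparisons. Some single libraries held both Xist and Y-linked transcripts, so a library can hold RNA from animals of both sexes. NT 3dpc replicate 1 had 892.3 CPM of Xist and 175.8 CPM of Y-linked transcripts, and NT 4dpc replicate 1 had 3023 and 74.86 CPM. The 10 ganglion cell markers Rbpms, Pou4f1, Pou4f2, Slc17a6, Thy1, Nefl, Nefm, Sncg, Isl1 and Tubb3 were present in every group. Their summed level was 4449 to 7659 CPM in SSRP1KO and 6093 to 10860 CPM in NT, and 7 of the 10 were lower in SSRP1KO than in NT over the 5 times. Summed over 14 microglia and macrophage markers, the level was 265.6 to 1559 CPM in SSRP1KO no crush and 86.94 to 182 CPM in NT no crush. In bulk samples such as these, fewer cells of a type and less RNA per cell cannot be told apart.

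Crush was followed by a rise of most of the 10 genes in both arms, led by Cdkn1a and Gadd45a. In the text below, CPM are library-scaled counts (TMM scaling), log2 fold changes are given ± SE, and adjusted p-values are from edgeR's quasi-likelihood test with Benjamini-Hochberg adjustment over 16621 genes, called below 0.05. Against no crush, SSRP1KO cells had 2 of the 10 genes called at 1dpc, 5 at 2dpc, 7 at 3dpc and 6 at 4dpc. Of all genes, 4.04%, 11.7%, 14.5% and 13.1% were called in the same 4 comparisons. NT cells had 3 of the 10 called at 1dpc, 5 at 2dpc, 7 at 3dpc and 8 at 4dpc, and of all genes 1.86%, 18.8%, 24.2% and 27.2% were called. The members called were higher after crush except Plk2, which was lower in SSRP1KO at 3dpc and in NT at 4dpc. The 4 comparisons of an arm share its no crush libraries. At 4dpc, 4 of the 10 ganglion cell markers were lower in SSRP1KO, and 8 were lower and 1 higher in NT, and at 3dpc 7 of 10 photoreceptor markers were higher in SSRP1KO, with a maximum of 3776 CPM in replicate 2. Their part in the crush responses was not tested. From 1dpc to 4dpc, 3 genes were called in SSRP1KO (Cdkn1a, Gadd45a and Gadd45g, all higher), where 8.99% of all genes were, and 7 in NT (6 higher, with Plk2 lower), where 19.9% of all genes were.

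**Figure D1:**
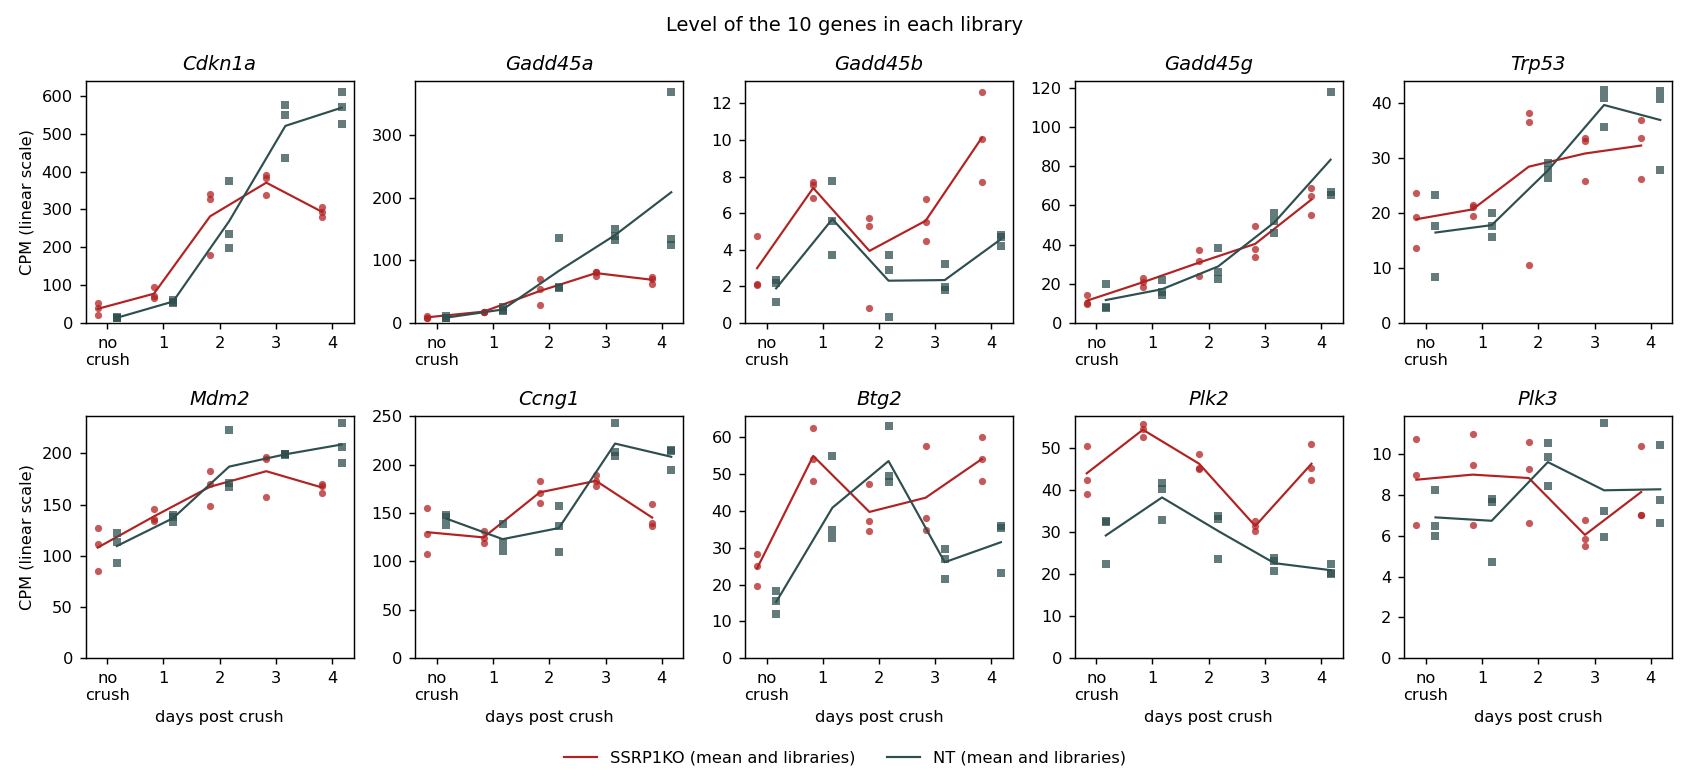
Level of each of the 10 genes in every library. The vertical axis is CPM on a linear scale from 0, the horizontal axis is the time after crush, points are single libraries and lines join the means of 3 libraries, with SSRP1KO in red circles and NT in dark squares. Cdkn1a at 4dpc lies at 279.9 to 307 CPM in SSRP1KO and at 525 to 609 CPM in NT, and Plk2 lies higher in SSRP1KO than in NT at every time.

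Trp53 mRNA rose at 3dpc and 4dpc in NT cells, by far less than Cdkn1a, and in SSRP1KO cells the differences at those times missed the threshold. In SSRP1KO cells it was at 19.4, 13.6 and 23.7 CPM without crush, 19.4, 21.2 and 21.4 at 1dpc, 38.2, 36.6 and 10.6 at 2dpc, 33.1, 25.8 and 33.7 at 3dpc and 37.0, 33.7 and 26.2 at 4dpc. The NT libraries had 23.2, 8.42 and 17.7 CPM without crush, 17.6, 15.7 and 20.1 at 1dpc, 26.3, 27.8 and 29.1 at 2dpc, 40.9, 42.3 and 35.7 at 3dpc and 27.9, 40.7 and 42.2 at 4dpc. In both arms the 3dpc and 4dpc libraries were all above the no crush libraries of the same arm, and the low value at 2dpc in SSRP1KO belonged to replicate 5, one of the libraries that stood apart. The SSRP1KO difference from no crush was 0.71 ± 0.32 at 3dpc (adjusted p = 0.148, range over the alternatives 0.0188 to 0.373) and 0.77 ± 0.32 at 4dpc (adjusted p = 0.119, range 0.0127 to 0.33). Both passed in 4 of the alternatives, among them without the libraries that stood apart, with 0.90 ± 0.27 at 3dpc (adjusted p = 0.0229) and 0.97 ± 0.27 at 4dpc (adjusted p = 0.0157). In NT cells Trp53 rose by 1.27 ± 0.32 at 3dpc (adjusted p = 0.00385) and by 1.17 ± 0.32 at 4dpc (adjusted p = 0.00655), while 2dpc gave 0.75 ± 0.32 (adjusted p = 0.104). The NT call at 4dpc was lost without NT no crush replicate 2 (adjusted p = 0.0627) and with a score of sex-linked transcripts (the sex score) as a covariate, where it was 1.08 ± 0.40 (adjusted p = 0.0635, range over the alternatives 0.000258 to 0.0635).

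Mdm2, the ubiquitin ligase that holds p53 down, rose by less than 1 log2 unit in both arms. In SSRP1KO cells it was at 85.5, 127 and 111 CPM without crush, 134, 146 and 136 at 1dpc, 170.1, 183 and 149 at 2dpc, 194, 157 and 196 at 3dpc and 168, 169.9 and 161 at 4dpc. The NT libraries held 92.4, 113 and 123 CPM without crush, 133, 137 and 139.5 at 1dpc, 167, 171 and 223 at 2dpc, 199.6, 199.5 and 198 at 3dpc and 229, 190.3 and 206 at 4dpc. Every crushed library of an arm was above its 3 no crush libraries. The rise at 4dpc was 0.63 ± 0.14 in SSRP1KO (adjusted p = 0.00248) and 0.93 ± 0.14 in NT (adjusted p = 7.54e-06). Calls began at 2dpc, with 0.63 ± 0.14 in SSRP1KO (adjusted p = 0.00296) and 0.77 ± 0.14 in NT (adjusted p = 0.000191). The SSRP1KO call at 2dpc was lost with the replicate number as a block (adjusted p = 0.0889), with the sex score as a covariate (adjusted p = 0.0674) and in a fit of the 2 groups alone (adjusted p = 0.216), within a range of 0.000959 to 0.216 over the alternatives.

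Cdkn1a, which encodes p21, had the largest crush response of the 10 genes at 2, 3 and 4dpc in both arms. SSRP1KO cells had 38.8, 52.6 and 21.1 CPM without crush, 65.7, 72.1 and 94.5 at 1dpc, 326, 340.0 and 179 at 2dpc, 383, 337 and 392 at 3dpc and 307, 292 and 279.9 at 4dpc. NT cells had 13.3, 12.3 and 16.0 CPM without crush, 55.5, 60.8 and 53.9 at 1dpc, 197, 236 and 375 at 2dpc, 436, 576 and 549.6 at 3dpc and 609, 571 and 525 at 4dpc. The crushed libraries lay above the no crush libraries at every time in both arms, without overlap. In SSRP1KO cells the rise was 1.05 ± 0.25 at 1dpc (adjusted p = 0.0126), 2.91 ± 0.26 at 2dpc, 3.30 ± 0.26 at 3dpc and 2.96 ± 0.26 at 4dpc (adjusted p = 3.42e-09). In NT cells it was 2.03 ± 0.26 at 1dpc (adjusted p = 5.95e-06), 4.28 ± 0.28 at 2dpc, 5.23 ± 0.29 at 3dpc and 5.36 ± 0.29 at 4dpc (adjusted p = 6.8e-14). The SSRP1KO libraries at 4dpc were all below those at 3dpc, while the NT libraries of those times overlapped. The SSRP1KO call at 1dpc was lost without SSRP1KO 1dpc replicate 3 (adjusted p = 0.0781), without SSRP1KO no crush replicate 3 (adjusted p = 0.0648), with the sex score as a covariate (adjusted p = 0.0651) and in a fit of the 2 groups alone (adjusted p = 0.105), within a range of 0.00212 to 0.105 over the alternatives.

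Gadd45a, which p53 activates after DNA damage and whose product binds p21, PCNA and a stress kinase kinase, had the next largest response from 2dpc on. In SSRP1KO cells it was at 10.6, 8.06 and 8.81 CPM without crush, 18.0, 18.1 and 18.4 at 1dpc, 53.8, 70.6 and 28.7 at 2dpc, 81.7, 75.3 and 81.8 at 3dpc and 62.9, 69.9 and 74.0 at 4dpc. In NT cells it was at 8.10, 7.33 and 10.6 CPM without crush, 19.1, 25.6 and 20.01 at 1dpc, 56.2, 57.2 and 136 at 2dpc, 149.9, 138 and 132 at 3dpc and 368, 125 and 133 at 4dpc. All crushed libraries were above the no crush libraries of their arm, and NT 4dpc replicate 1 was far above the other two libraries of its group. In SSRP1KO cells the difference was 0.98 ± 0.34 at 1dpc (adjusted p = 0.103), and the rise was 2.47 ± 0.35 at 2dpc, 3.11 ± 0.35 at 3dpc and 2.90 ± 0.35 at 4dpc (adjusted p = 8.97e-07). In NT cells the rise was 1.31 ± 0.34 at 1dpc (adjusted p = 0.0369), 3.25 ± 0.36 at 2dpc, 4.01 ± 0.37 at 3dpc and 4.58 ± 0.37 at 4dpc (adjusted p = 1.65e-10). Leaving out any 1 of the 3 NT 1dpc libraries, NT no crush replicate 1 or 2, or NT 3dpc replicate 2 ended the NT call at 1dpc (adjusted p up to 0.19), as did the sex score as a covariate (adjusted p = 0.318, and 0.00269 to 0.318 over all alternatives).

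Gadd45g, the family member known for developmental neurogenesis, increased steadily. SSRP1KO libraries gave 10.1, 14.4 and 9.59 CPM without crush, 21.2, 22.9 and 18.4 at 1dpc, 31.5, 37.1 and 24.0 at 2dpc, 49.7, 33.8 and 37.8 at 3dpc and 69.0, 65.0 and 55.1 at 4dpc. NT libraries gave 7.50, 8.02 and 19.7 CPM without crush, 14.3, 21.7 and 15.8 at 1dpc, 26.1, 22.4 and 38.3 at 2dpc, 46.0, 51.9 and 56.2 at 3dpc and 118, 66.8 and 65.2 at 4dpc. From 2dpc the crushed libraries were clear of the no crush libraries in both arms, and the 1dpc and no crush libraries of NT overlapped. The difference at 1dpc was 0.87 ± 0.29 in SSRP1KO (adjusted p = 0.0938) and 0.55 ± 0.29 in NT (adjusted p = 0.433). The rise at 4dpc was 2.47 ± 0.30 in SSRP1KO (adjusted p = 1.17e-06) and 2.82 ± 0.31 in NT (adjusted p = 2.89e-08), and the libraries of the arms overlapped at that time.

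Gadd45b, an early response gene induced by cytokines and neuronal activity, was the least abundant of the 3 and had its own time course. In SSRP1KO cells it was at 4.73, 2.15 and 2.10 CPM without crush, 6.85, 7.73 and 7.56 at 1dpc, 5.29, 5.73 and 0.798 at 2dpc, 6.78, 5.51 and 4.46 at 3dpc and 12.6, 10.03 and 7.73 at 4dpc. Among NT libraries the level was 1.15, 2.19 and 2.35 CPM without crush, 3.74, 5.56 and 7.73 at 1dpc, 3.70, 2.91 and 0.333 at 2dpc, 1.83, 1.98 and 3.23 at 3dpc and 4.81, 4.23 and 4.70 at 4dpc. In both arms the 1dpc and 4dpc libraries were above the no crush libraries, with lower values between. The lowest values rest on few reads: 14 counts in SSRP1KO 2dpc replicate 5 and 3 counts in NT 2dpc replicate 3, both libraries named above. At 1dpc the differences missed the threshold, with 1.29 ± 0.55 in SSRP1KO (adjusted p = 0.202) and 1.58 ± 0.56 in NT (adjusted p = 0.177). At 4dpc the rise passed in SSRP1KO, with 1.75 ± 0.55 (adjusted p = 0.0335), and the NT value was 1.26 ± 0.56 (adjusted p = 0.0962). The NT value passed in 5 of the alternatives, among them with the sex score as a covariate, at 2.56 ± 0.70 (adjusted p = 0.0093), and without the libraries that stood apart (adjusted p = 0.0341), within a range of 0.00487 to 0.271. The SSRP1KO call was lost without SSRP1KO 4dpc replicate 1 or 2 or SSRP1KO no crush replicate 2 or 3, with adjusted p of 0.0055 to 0.129 over the alternatives.

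Btg2, an antiproliferative protein that binds the CCR4-NOT deadenylase and that is both a p53 target and an immediate early gene, was raised from the first day. It averaged 24.4 ± 4.43 CPM without crush, 54.9 ± 7.18 at 1dpc, 39.7 ± 6.77 at 2dpc, 43.6 ± 12.3 at 3dpc and 54.1 ± 5.96 at 4dpc in SSRP1KO cells (SD, n = 3). In NT cells it averaged 15.2 ± 3.16 CPM without crush, 40.9 ± 12.3 at 1dpc, 53.6 ± 8.41 at 2dpc, 26.1 ± 4.14 at 3dpc and 31.5 ± 7.19 at 4dpc (SD, n = 3). It was called at all 4 times in both arms, with a rise at 1dpc of 1.17 ± 0.23 in SSRP1KO (adjusted p = 0.00234) and 1.42 ± 0.23 in NT (adjusted p = 0.000341). The highest mean came at 1dpc in SSRP1KO and at 2dpc in NT. At 2dpc the rise was 0.71 ± 0.23 in SSRP1KO (adjusted p = 0.0406) and 1.81 ± 0.23 in NT (adjusted p = 1.53e-06). The SSRP1KO call at 2dpc was lost under 9 alternatives (adjusted p 0.0182 to 0.276), among them without SSRP1KO 2dpc replicate 3 or 4, without SSRP1KO no crush replicate 1 or 2 and without NT 3dpc replicate 2. The 3dpc calls, 0.84 ± 0.23 in SSRP1KO (adjusted p = 0.0114) and 0.77 ± 0.23 in NT (adjusted p = 0.0126), also depended on single libraries: SSRP1KO 3dpc replicate 2 or SSRP1KO no crush replicate 1, and NT 3dpc replicate 1 or 2 or NT no crush replicate 3.

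Ccng1 encodes cyclin G1, a p53 target that brings protein phosphatase 2A to Mdm2, and it was the most abundant of the 10 genes per kilobase without crush. It averaged 130.1 ± 23.8 CPM without crush, 125 ± 6.50 at 1dpc, 171 ± 11.4 at 2dpc, 183 ± 5.83 at 3dpc and 145 ± 12.3 at 4dpc in SSRP1KO cells (SD, n = 3). In NT cells it averaged 144 ± 5.52 CPM without crush, 123 ± 14.2 at 1dpc, 134 ± 23.9 at 2dpc, 222 ± 18.8 at 3dpc and 208 ± 11.4 at 4dpc (SD, n = 3). The rise was called at 3dpc in SSRP1KO, with 0.49 ± 0.13 (adjusted p = 0.0115), and at 3dpc and 4dpc in NT, with 0.62 ± 0.13 (adjusted p = 0.000797) and 0.53 ± 0.13 (adjusted p = 0.00328). In SSRP1KO the value at 4dpc was 0.16 ± 0.13 (adjusted p = 0.529). The SSRP1KO call at 3dpc was lost without SSRP1KO no crush replicate 2 (adjusted p = 0.0782, range over the alternatives 0.00274 to 0.164).

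Neither polo-like kinase rose past the threshold after crush. Plk2, a kinase induced by synaptic activity as well as by p53, averaged 44.1 ± 5.87 CPM without crush, 54.5 ± 1.59 at 1dpc, 46.3 ± 2.04 at 2dpc, 31.5 ± 1.30 at 3dpc and 46.3 ± 4.34 at 4dpc in SSRP1KO cells (SD, n = 3). In NT cells it averaged 29.2 ± 5.84 CPM without crush, 38.3 ± 4.69 at 1dpc, 30.3 ± 5.69 at 2dpc, 22.6 ± 1.64 at 3dpc and 20.96 ± 1.21 at 4dpc (SD, n = 3). Against no crush, Plk2 fell by 0.48 ± 0.16 at 3dpc in SSRP1KO (adjusted p = 0.0395), and at 4dpc the SSRP1KO value was 0.07 ± 0.16 (adjusted p = 0.845). In NT it fell by 0.48 ± 0.16 at 4dpc (adjusted p = 0.0245), and at 3dpc the NT value was -0.37 ± 0.16 (adjusted p = 0.0978). The SSRP1KO call was lost under 13 alternatives, among them without any 1 of the SSRP1KO 3dpc libraries (adjusted p 0.00323 to 0.181 over the alternatives). The NT call was lost under 6: without NT 4dpc replicate 2 or 3, without NT no crush replicate 2 or 3, in a fit of the 2 groups alone (adjusted p = 0.0992), and with the sex score as a covariate, where the value was -0.12 ± 0.18 (adjusted p = 0.712, range 0.00513 to 0.712). Between 1dpc and 4dpc, Plk2 fell by 0.87 ± 0.16 in NT cells (adjusted p = 0.000177). Plk3, a stress-activated relative, was at 4.73 to 11.5 CPM in all libraries and was called in 0 of its 16 pairwise comparisons by edgeR's quasi-likelihood test, with an unadjusted p under 0.05 in 0 of them and with 0 calls by DESeq2. Its values ran from -0.53 ± 0.30 in SSRP1KO at 3dpc (smallest adjusted p = 0.258) to 0.47 ± 0.30 in NT at 2dpc (adjusted p = 0.296).

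**Figure D2:**
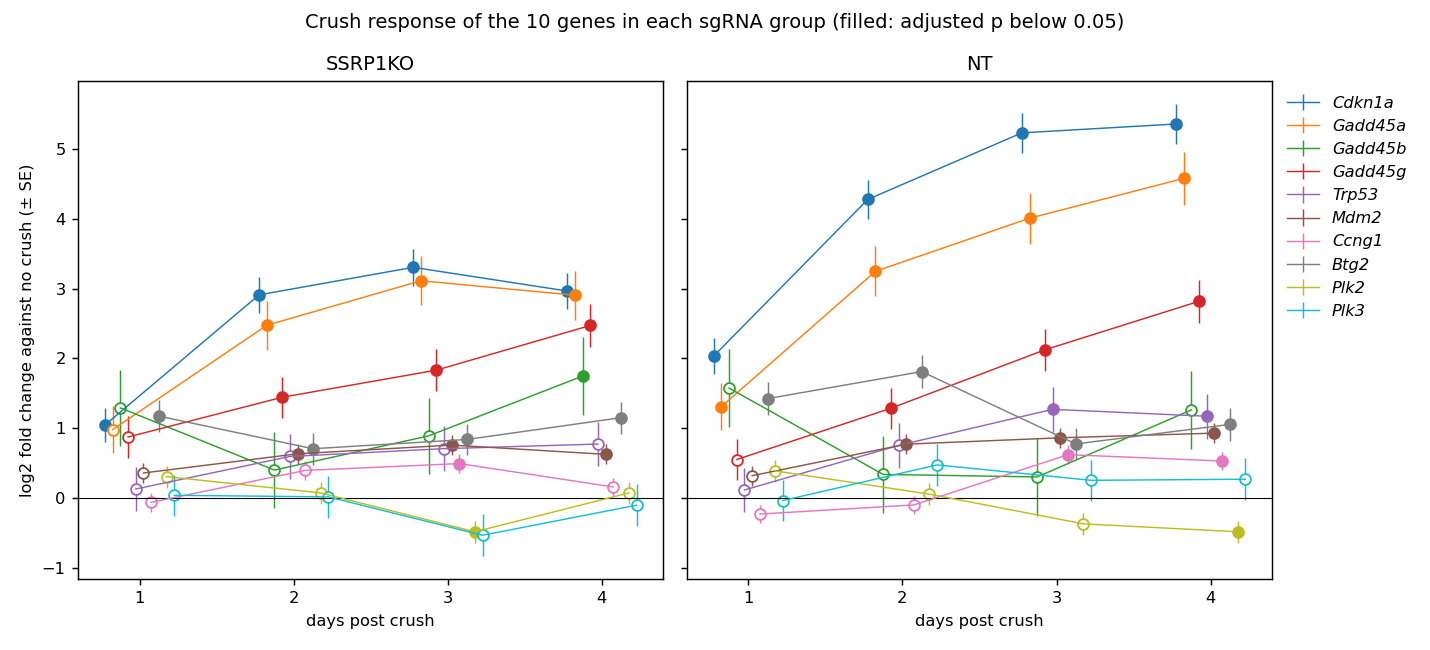
Crush response of the 10 genes in SSRP1KO (left) and NT (right). The vertical axis is the log2 fold change against no crush of the same arm with SE, the horizontal axis is days post crush, and filled points passed an adjusted p of 0.05. Cdkn1a at 4dpc reaches 2.96 in SSRP1KO and 5.36 in NT, while Gadd45g reaches 2.47 in SSRP1KO and 2.82 in NT.

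SSRP1KO and NT cells were then compared at each time, which asks whether the sgRNAs against Ssrp1 changed the level of these genes before or after injury. Without crush, Cdkn1a and Plk2 were higher in SSRP1KO cells, and 2 of the 10 genes were called where 3.91% of all genes were. These groups differ in the sex of the animals, and with the sex score as a covariate 9 of the 16621 genes were called in place of 650. The score itself separated the arms here, at -11.3 to -10.5 in SSRP1KO no crush and -0.0444 to 6.89 in NT no crush. The part of sex in the smaller count was not tested. Cdkn1a was at 38.8, 52.6 and 21.1 CPM in SSRP1KO and at 13.3, 12.3 and 16.0 CPM in NT, so the groups did not overlap, and the difference was 1.44 ± 0.25 (adjusted p = 0.00315), or 2.71-fold (95% interval of the log2 value 0.92 to 1.95). The lowest of the SSRP1KO values was in the library labelled replicate 3, whose Ssrp1 level went against its label. Without that library the difference was 1.72 ± 0.23 (adjusted p = 7.33e-05). With the sex score as a covariate it was 1.17 ± 0.34 and missed the threshold (adjusted p = 0.148, range over the alternatives 8.01e-08 to 0.148), and in a fit of these 6 libraries alone it was 1.49 ± 0.31 (adjusted p = 0.101). In the same comparison 5 of 14 microglia and macrophage markers and 2 of 6 amacrine cell markers were higher in SSRP1KO, with no microglia marker at 0, and 5 of 10 ganglion cell markers were lower. The summed ganglion cell markers were at 6688 to 7659 CPM in SSRP1KO and 9521 to 10860 CPM in NT, the summed amacrine cell markers at 379.6 to 845.6 CPM in SSRP1KO and 168.9 to 406 CPM in NT, and the part of these in the result was not tested. Plk2 was at 42.5, 39.1 and 50.5 CPM in SSRP1KO and at 22.5, 32.7 and 32.5 CPM in NT, again without overlap, with a difference of 0.59 ± 0.16 (adjusted p = 0.0336). Its call was lost without any 1 of the 3 NT libraries or without SSRP1KO replicate 1 or 3 (adjusted p 0.00329 to 0.2). The difference of Gadd45a without crush was 0.08 ± 0.34 (adjusted p = 0.931), with a 95% interval of -0.62 to 0.78. Btg2 gave 0.68 ± 0.23 (adjusted p = 0.09), with the 3 SSRP1KO libraries above the 3 NT libraries.

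At 1, 2 and 3dpc none of the 10 genes passed the threshold between the arms by edgeR's quasi-likelihood test, in comparisons where 0.018%, 0.0842% and 1.11% of all genes were called. At an unadjusted p under 0.05 there were 1, 3 and 5 of the 10, and DESeq2 called 0 at 1dpc, 1 at 2dpc (Plk2) and 1 at 3dpc (Btg2). The difference of Cdkn1a passed through 0 in these days: it was 0.45 ± 0.24 at 1dpc (adjusted p = 1), 0.07 ± 0.24 at 2dpc (adjusted p = 0.917, 95% interval -0.42 to 0.56) and -0.49 ± 0.24 at 3dpc (adjusted p = 0.354). The libraries of the arms overlapped at 2dpc, were all higher in SSRP1KO at 1dpc and all lower in SSRP1KO at 3dpc. At 2dpc the sign of this difference depended on single libraries: without NT 2dpc replicate 3, whose Ssrp1 went against its label, it was 0.38 ± 0.25 (adjusted p = 0.535), and without NT 2dpc replicate 1 it was -0.11 (adjusted p = 0.85, range over the alternatives 0.335 to 0.998). Gadd45a gave -0.25 ± 0.33 at 1dpc (adjusted p = 1), -0.69 ± 0.32 at 2dpc (adjusted p = 0.256) and -0.82 ± 0.32 at 3dpc (adjusted p = 0.224). Its 2dpc value moved with the same library: without NT 2dpc replicate 3 it was -0.15 ± 0.31 (adjusted p = 0.873, range 0.13 to 0.985). Plk2 gave 0.51 ± 0.16 at 1dpc (adjusted p = 0.587), 0.61 ± 0.16 at 2dpc (adjusted p = 0.0798) and 0.48 ± 0.16 at 3dpc (adjusted p = 0.143), with SSRP1KO libraries above NT libraries each time. Btg2 gave 0.74 ± 0.23 at 3dpc (adjusted p = 0.107) and Gadd45b 1.25 ± 0.55 (adjusted p = 0.285). Trp53 gave 0.21 ± 0.32 at 1dpc (adjusted p = 1) and -0.36 ± 0.32 at 3dpc (adjusted p = 0.678).

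By 4dpc the arms differed in 5 of the 10 genes, where 6.91% of all genes were called: Cdkn1a, Gadd45a and Ccng1 were lower in SSRP1KO cells, and Plk2 and Btg2 were higher. Cdkn1a was at 307, 292 and 279.9 CPM in SSRP1KO and at 609, 571 and 525 CPM in NT, a difference of -0.96 ± 0.24 (adjusted p = 0.015), or 0.515-fold. Gadd45a was at 62.9, 69.9 and 74.0 CPM in SSRP1KO and at 368, 125 and 133 CPM in NT, a difference of -1.59 ± 0.33 (adjusted p = 0.00338), or 0.332-fold. For both genes every SSRP1KO library was below every NT library. NT 4dpc replicate 1 held the extreme Gadd45a value and an Ssrp1 level of 50.6 CPM, the lowest of its group. Without that library the Gadd45a difference was -0.87 and no longer called (adjusted p = 0.0993, range over the alternatives 8.88e-05 to 0.0993). The Cdkn1a call was lost without that same library (adjusted p = 0.0763) and without any 1 of the SSRP1KO 4dpc libraries (adjusted p = 0.0527 to 0.0706), with its log2 value between -1.02 and -0.87 over all alternatives. Plk2 was at 51.1, 45.3 and 42.6 CPM in SSRP1KO and at 22.4, 20.4 and 20.2 CPM in NT, a difference of 1.15 ± 0.16 (adjusted p = 9.8e-05) that was called under all alternatives tried. Ccng1 was at 140.0, 136 and 159 CPM in SSRP1KO and at 214, 215 and 195 CPM in NT, a difference of -0.52 ± 0.13 (adjusted p = 0.0178). Btg2 was at 60.1, 54.1 and 48.2 CPM in SSRP1KO and at 23.2, 35.5 and 35.8 CPM in NT, a difference of 0.77 ± 0.23 (adjusted p = 0.0358). Neither pair of groups overlapped, but the Ccng1 call was lost without NT 4dpc replicate 1 or 2 or SSRP1KO 4dpc replicate 1 or 2 (adjusted p 0.00326 to 0.0904), and the Btg2 call without NT 4dpc replicate 1 or any 1 of the SSRP1KO 4dpc libraries and with the sex score as a covariate (adjusted p 0.0157 to 0.171). Of the other genes at 4dpc, Gadd45b gave 1.15 ± 0.54 (adjusted p = 0.234), Gadd45g -0.40 ± 0.28 (adjusted p = 0.471) and Mdm2 -0.32 ± 0.14 (adjusted p = 0.178). At 4dpc 2 of 10 ganglion cell markers were lower in SSRP1KO than in NT, with summed levels of 4449 to 4854 CPM in SSRP1KO and 6093 to 9822 CPM in NT, and the part of this in the differences was not tested. Of 10 immediate early genes, 2 were higher in SSRP1KO at 4dpc and 0 lower, and their part was not tested.

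Averaged over the 5 times, 15 SSRP1KO against 15 NT libraries, Plk2, Btg2 and Gadd45b were higher and Gadd45a lower in SSRP1KO cells, which makes 4 of 10 genes where 19.8% of all genes were called. Plk2 differed by 0.67 ± 0.07 (adjusted p = 7.75e-07), and its libraries were separate at each of the 5 times. Btg2 differed by 0.44 ± 0.10 (adjusted p = 0.00297), although at 2dpc its SSRP1KO libraries were the lower ones. Gadd45b differed by 0.83 ± 0.24 (adjusted p = 0.0163) and Gadd45a by -0.65 ± 0.15 (adjusted p = 0.00227). These 4 calls were kept under all alternatives tried. Over the same 5 times 7 of 10 immediate early genes were higher in SSRP1KO, and their part in the result was not tested. Without crush 0 of the 10 were called, with summed levels of 498.3 to 676.1 CPM in SSRP1KO and 344.3 to 490.3 CPM in NT. The sums of the arms overlapped at 2dpc, with 715.1 to 1336 CPM in SSRP1KO and 934.1 to 1128 CPM in NT. They also overlapped at 3dpc, with 889.7 to 959.2 CPM in SSRP1KO and 834.3 to 914.7 CPM in NT. At 1dpc they were separate, with 1010 to 1237 CPM in SSRP1KO and 653.9 to 896.6 CPM in NT, and 0 of the 10 were called. At 4dpc the sums were 965.9 to 1167 CPM in SSRP1KO and 881.2 to 966.1 CPM in NT, and 2 of the 10 were higher in SSRP1KO. Also higher in SSRP1KO over the 5 times were 3 of 6 amacrine cell, 3 of 7 bipolar cell, 3 of 14 microglia and macrophage and 2 of 8 Muller glia and astrocyte markers, while 7 of 10 ganglion cell markers were lower. Cdkn1a gave 0.10 ± 0.11 (adjusted p = 0.547), a mean over differences that were above 0 without crush, at 1dpc and at 2dpc and below 0 at 3dpc and 4dpc. Without the libraries that stood apart and without NT 2dpc replicate 3 it was 0.27 ± 0.07 (adjusted p = 0.0036, range 0.0036 to 0.852).

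**Figure D3:**
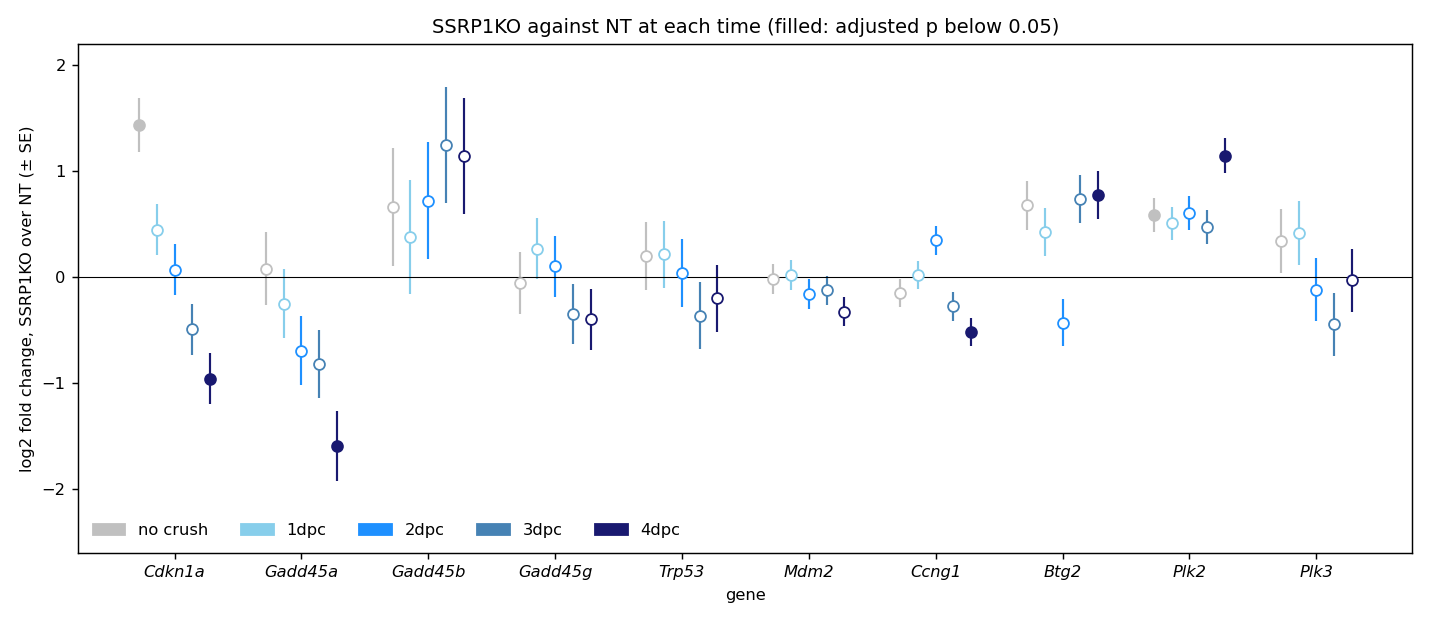
Difference between the arms at each time for the 10 genes. The vertical axis is the log2 fold change of SSRP1KO over NT with SE, each gene has 5 points for no crush and 1 to 4 days post crush from light to dark, and filled points passed an adjusted p of 0.05. Cdkn1a lies at 1.44 without crush and at -0.96 at 4dpc, Gadd45a at 0.08 and at -1.59, and Plk2 is above 0 at all 5 times.

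The crush response itself was compared between the arms with an F-test of the 4 differences together. Cdkn1a was the 1 gene of the 10 called (adjusted p = 0.00321), where 0.728% of all genes were, and 5 of the 10 had an unadjusted p under 0.05. Its response in SSRP1KO minus that in NT was -0.99 ± 0.35 at 1dpc (adjusted p = 0.304), -1.37 ± 0.35 at 2dpc (adjusted p = 0.105), -1.93 ± 0.35 at 3dpc (adjusted p = 0.00942) and -2.39 ± 0.35 at 4dpc (adjusted p = 0.000339). The joint call and the 4dpc call were kept under all alternatives tried, and the 3dpc call was lost with the sex score as a covariate (adjusted p = 0.0603, range 8.94e-07 to 0.0603). The value at 4dpc, -2.39, is the difference of -0.96 between the arms at 4dpc minus the difference of 1.44 between them without crush, and the no crush term includes replicate 3 of SSRP1KO, the library whose Ssrp1 level went against its label. Without that library and the other one that stood apart, the differences at 1dpc and 2dpc were also called, at -1.27 (adjusted p = 0.017, range 0.00141 to 0.858) and -1.41 (adjusted p = 0.00968, range 0.00968 to 0.794). Gadd45a, whose difference without crush was 0.08, gave -1.67 ± 0.47 at 4dpc (adjusted p = 0.0658) and a joint adjusted p of 0.247. Without the libraries that stood apart its 4dpc value was -1.70 (adjusted p = 0.0383, range 0.00826 to 0.305). Ccng1 had a joint adjusted p of 0.0967 and Btg2 of 0.14. Plk2 gave 0.56 ± 0.23 at 4dpc (adjusted p = 0.239).

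Across the 10 groups the level of Cdkn1a was highest in NT 4dpc, at 569 ± 41.9 CPM (SD, n = 3), and lowest in NT no crush, at 13.9 ± 1.92 CPM. In descending order the groups were NT 4dpc, NT 3dpc, SSRP1KO 3dpc, SSRP1KO 4dpc, SSRP1KO 2dpc, NT 2dpc, SSRP1KO 1dpc, NT 1dpc, SSRP1KO no crush and NT no crush. The libraries of neighbouring groups overlapped between NT 4dpc and NT 3dpc, between SSRP1KO 4dpc and SSRP1KO 2dpc, and between SSRP1KO 2dpc and NT 2dpc, and were separate elsewhere in that order. Per kilobase of annotated exon, which allows genes to be compared, Ccng1 led without crush with 37.0 CPM per kb in SSRP1KO and 41.0 in NT, followed by Mdm2 with 21.2 in SSRP1KO and 21.5 in NT. Cdkn1a stood at 10.6 CPM per kb in SSRP1KO and 3.90 in NT without crush. At 4dpc it was the highest of the 10 per kilobase in both arms, with 82.5 CPM per kb in SSRP1KO and 160.0 in NT. Gadd45a reached 39.1 CPM per kb in SSRP1KO and 118 in NT at 4dpc, and Gadd45g 53.7 in SSRP1KO and 71.0 in NT. Gadd45b stayed low, at 6.37 CPM per kb in SSRP1KO and 2.88 in NT at 4dpc.

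Over the 10 group means of log2 CPM, given as a description of groups that share the crush time course, the Pearson correlation of Cdkn1a was 0.967 with Gadd45a, 0.967 with Mdm2, 0.956 with Trp53 and 0.932 with Gadd45g. It was 0.703 with Ccng1, 0.493 with Btg2, 0.197 with Gadd45b and -0.354 with Plk2. Plk3 had correlations between -0.234 and 0.283 with every other member. Outside the 10 genes, the 5 whose group means were most like those of Cdkn1a, among 10828 genes with a mean of at least 5 CPM, were Snx33 at 0.993, Slc7a3 at 0.9907, Atf3 at 0.9902, Creb3 at 0.9871 and Bbs9 at 0.9857. For Gadd45a they were Fgfr1 and Tmx1, both at 0.9932, Plekho1 at 0.9928, Yars at 0.9919 and Chka at 0.9911. For Trp53 they were Dusp4 at 0.9879, Avil at 0.9865, Xirp2 and Tes, both at 0.9811, and Polr2a at 0.9807.

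Other genes of the pathway were read from lists by role, set beside the all-gene median log2 fold change at 4dpc of 0.0102 in SSRP1KO and 0.07 in NT, and beside the 13.1% of all genes called in SSRP1KO and the 27.2% called in NT. Of 14 tested p53 targets that promote cell death, 2 rose at 4dpc in SSRP1KO, a share near that of all genes, and 6 in NT. The median log2 fold change of this list was 0.24 in SSRP1KO and 1.16 in NT. Between the arms, its median in SSRP1KO over NT was 0.783 without crush, with 1 of the 14 genes higher and 0 lower. At 4dpc that median was -0.107, with 0 of the 14 called. Of all genes, 3.91% were called between the arms without crush and 6.91% at 4dpc. Apaf1, the scaffold of the apoptosome, gave 0.23 ± 0.23 at 4dpc in SSRP1KO (adjusted p = 0.616) and rose by 1.57 ± 0.24 in NT (adjusted p = 6.96e-06). Pmaip1, which encodes the BH3-only protein Noxa, gave 2.37 ± 0.89 in SSRP1KO (adjusted p = 0.0794) and rose by 5.95 ± 1.07 in NT (adjusted p = 7.8e-05). The 2 called in SSRP1KO were Trp53i11, at 0.55 ± 0.16 (adjusted p = 0.0208), and Bbc3, which encodes the BH3-only protein Puma and was singled out after its values were seen, at 1.78 ± 0.39 (adjusted p = 0.00204) and with 1.47 ± 0.38 in NT (adjusted p = 0.00432). Whether the lists as a whole differed between the arms was not tested.

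Of 19 tested p53 targets linked to arrest and survival, 1 rose in SSRP1KO at 4dpc, while 3 rose and 2 fell in NT, with medians of 0.198 in SSRP1KO and 0.397 in NT, and neither share was above that of all genes, 13.1% in SSRP1KO and 27.2% in NT. Sesn2, a sestrin that restrains mTORC1 and is also an ATF4 target, rose by 2.49 ± 0.42 in SSRP1KO (adjusted p = 9.22e-05) and by 3.37 ± 0.44 in NT (adjusted p = 5.5e-07). Gdf15, a secreted stress hormone, gave 1.77 ± 0.61 in SSRP1KO (adjusted p = 0.0518) and rose by 5.06 ± 0.76 in NT (adjusted p = 6.53e-06). Without crush, where the arms differ in sex, the difference of SSRP1KO from NT was 3.28 ± 0.77 for Gdf15 (adjusted p = 0.0172), 1.05 ± 0.24 for Apaf1 (adjusted p = 0.0139) and 2.05 ± 0.29 for Atf3 (adjusted p = 0.000408). With the sex score as a covariate each of the 3 missed the threshold, at 3.66 ± 0.99 for Gdf15 (adjusted p = 0.128), 0.96 ± 0.33 for Apaf1 (adjusted p = 0.219) and 1.75 ± 0.37 for Atf3 (adjusted p = 0.0515). The genes that fell in NT at 4dpc were Rprm, by 2.61 ± 0.38 on the log2 scale (adjusted p = 4.57e-06), and Sesn1, by 0.70 ± 0.24 (adjusted p = 0.0326). Of the 20 tested regulators of p53, 1 was higher and 1 lower at 4dpc in SSRP1KO, where 13.1% of all genes were called, and 4 were higher and 3 lower in NT, where 27.2% were. Rchy1, a ubiquitin ligase for p53, rose by 1.24 ± 0.22 in SSRP1KO (adjusted p = 0.000142) and by 1.26 ± 0.21 in NT (adjusted p = 3.98e-05).

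The 16 genes known to induce members of this set without p53 had the largest share of calls of the 8 lists: 8 rose at 4dpc in SSRP1KO, where 13.1% of all genes were called, and 10 in NT, where 27.2% were, with medians of 0.875 in SSRP1KO and 1.65 in NT. The lists were chosen with earlier results of these data known, so their ranking is only a description. Atf3, an injury-induced transcription factor, rose by 4.27 ± 0.29 in SSRP1KO (adjusted p = 3.52e-11) and by 7.38 ± 0.34 in NT (adjusted p = 1.81e-15). Ddit3, which encodes the stress factor CHOP, rose by 3.33 ± 0.28 in SSRP1KO (adjusted p = 2.15e-09) and by 3.44 ± 0.28 in NT (adjusted p = 1.39e-10). Of 19 tested CDK inhibitors, cyclins and CDKs, 3 rose and 2 fell at 4dpc in SSRP1KO, where 13.1% of all genes were called, while 6 rose and 3 fell in NT, where 27.2% were. Ccnd2, which encodes cyclin D2, rose by 2.99 ± 0.42 in SSRP1KO (adjusted p = 9.27e-06) and by 4.02 ± 0.44 in NT (adjusted p = 2.91e-08). Among 18 tested partners of the GADD45 proteins, 1 rose and 5 fell at 4dpc in SSRP1KO, while 2 rose and 6 fell in NT, beside the same 13.1% of all genes in SSRP1KO and 27.2% in NT. Map2k3, a kinase that activates p38, was higher in both arms, by 1.27 ± 0.34 in SSRP1KO (adjusted p = 0.0116) and 1.79 ± 0.35 in NT (adjusted p = 0.000221). Map2k6, its close relative, was lower in both, with -1.22 ± 0.40 in SSRP1KO (adjusted p = 0.0409) and -2.38 ± 0.43 in NT (adjusted p = 7.16e-05).

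**Figure D4:**
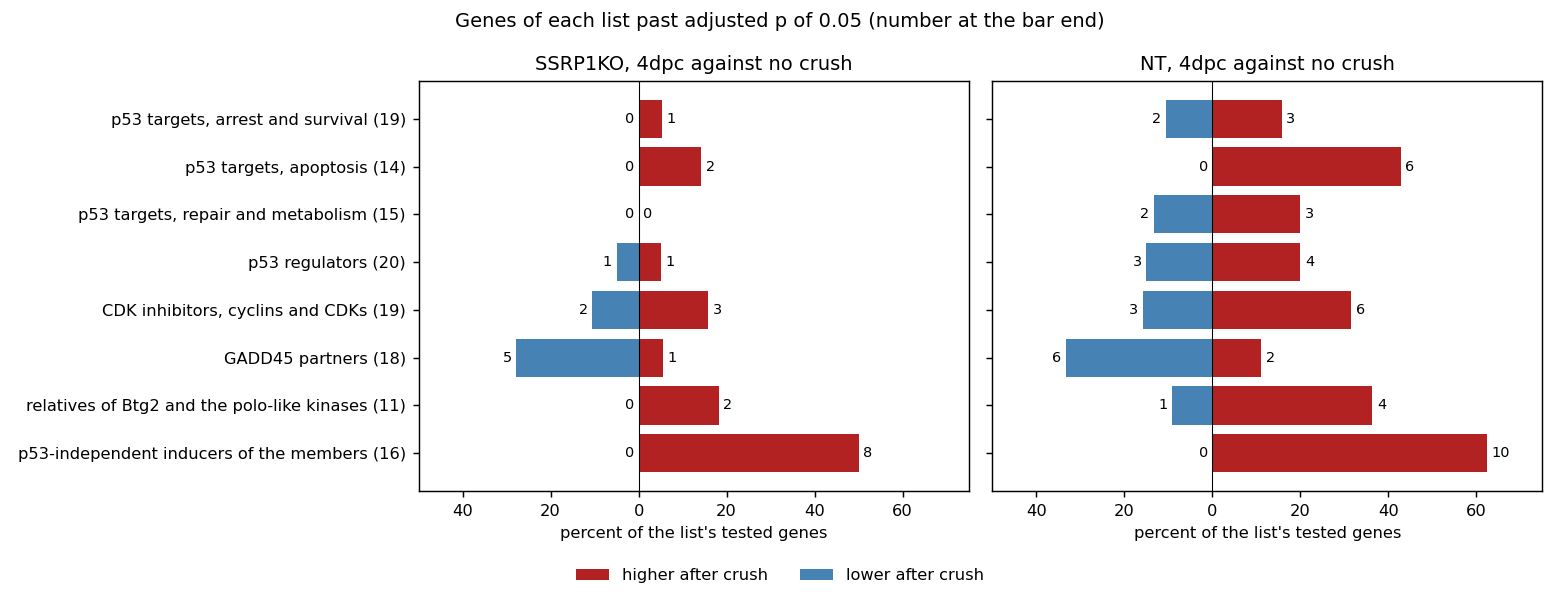
Share of each list's tested genes called at 4dpc against no crush in SSRP1KO (left) and NT (right). Bars to the right are genes that were higher after crush and bars to the left genes that were lower, in percent of the tested genes, whose number stands in brackets and whose called count is at the end of each bar. The p53-independent inducers have 8 called in SSRP1KO and 10 in NT, and the apoptosis targets 2 in SSRP1KO and 6 in NT.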

How the data were processed

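The values deposited by the authors are raw counts of reads for each gene in the 30 libraries, made with the SMART-Seq v4 low-input kit per the labels' protocols. Per the submitters' processing notes, GRCm38 (mm10) was the build and STAR, HTSeq and bcl2fastq 2.17 were used, with no role given. Not given in the sources used here are the annotation, the strand setting and the handling of reads with several matches, so overlapping and antisense transcripts cannot be told apart. Of 24060 symbols, 27 that had turned into dates (at most 0.275% of a library's counts) were left out. The deposited table of repeat intervals was not used.

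Counts were scaled with TMM and tested with edgeR 4.0.16 in R 4.3.3: filterByExpr, 1 coefficient per group, 20 residual degrees of freedom, quasi-likelihood tests, two-sided for single contrasts, Benjamini-Hochberg adjustment over the 16621 genes tested, threshold 0.05. The SE is the absolute log2 fold change divided by the root of the F statistic. Alternatives were DESeq2 1.42.0, its size factors, no filter, a replicate block, a sex score, the compared groups alone, each library left out, and, chosen after seeing the data, no NT 2dpc replicate 3 besides the libraries that stood apart. No pair of replicates was duplicated (smallest chi-square per degree of freedom 11.5). Exon lengths came from GENCODE M21 and promoters from RefSeq. The steps were tested on simulated data. Python 3.11.15 and matplotlib 3.10.9 drew the figures.

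The 10 genes and the lists were chosen with earlier results of these data known. Named in every comparison were the 10 genes and Ssrp1. From each list the genes considered were the 2 with the smallest adjusted p each way in NT 4dpc against no crush and in the average of SSRP1KO against NT. Not all of these are named in the text. At 4dpc only a gene that rose is named among the p53 regulators and among the CDK inhibitors, cyclins and CDKs, although 3 genes of each list fell in NT. The named genes are followed in other comparisons. Outside Gadd45b, the precision is set by 3 libraries per group more than by depth. Gadd45b had 3 counts in NT 2dpc replicate 3, a library of 9715972 counts. It had 45 counts in NT 4dpc replicate 1, a library of 10888302 counts. In SSRP1KO 2dpc replicate 5, with 15179732 counts, it had 14. The part of depth in the low Gadd45b values was not tested.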

Additional observations from a re-analysis of the deposited data

Results flagged for a closer look

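The crush response of Cdkn1a differed between the SSRP1KO and NT arms by a test of the difference itself, edgeR's quasi-likelihood test with Benjamini-Hochberg adjustment. The SSRP1KO response minus the NT response was -1.93 ± 0.35 on the log2 scale at 3dpc (SE, adjusted p = 0.00942) and -2.39 ± 0.35 at 4dpc (SE, adjusted p = 0.000339). Taken over all 4 times after crush at once, the difference had an adjusted p of 0.00321. At both times all 3 SSRP1KO libraries were below all 3 NT libraries, and without crush all 3 SSRP1KO libraries were above all 3 NT libraries. Between the arms, the difference at 3dpc was -0.49 and missed the threshold (adjusted p = 0.354), and without crush it was 1.44 (adjusted p = 0.00315). With the sex score as a covariate the 3dpc difference of responses (adjusted p = 0.0603) and the no crush difference (adjusted p = 0.148) missed the threshold. In a fit of the no crush groups alone the no crush difference also missed it (adjusted p = 0.101). No other of the 10 genes had a called difference of responses at a single time or over the 4 times.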

How the results depend on the processing

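Of 65 calls among the 10 genes, 42 were kept under every alternative. The counts that follow are of the 10 genes alone. Calls over all genes also change with the alternative, so a moved count is not a result particular to these genes. In SSRP1KO against no crush, the count at 1dpc (2) was 1 with the sex score and 1 in a fit of the compared groups alone, which has fewer libraries to estimate the spread, and 1 to 3 when single libraries were left out. At 2dpc (5) it was 2 under the replicate block, 2 with the sex score and 2 in the fit of the groups alone. At 3dpc (7) it was 3 in the fit of the groups alone. From 1dpc to 4dpc (3) it was 1 with the sex score and 5 in the fit of the groups alone.

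In SSRP1KO against NT, the count without crush (2) was 1 with the sex score, 1 without the libraries that stood apart, 0 in the fit of the groups alone and 1 to 2 when single libraries were left out. Of all genes, 3.91% were called in that comparison, and 0.0541% with the sex score. At 1dpc (0) it was 1 in the fit of the groups alone. At 2dpc (0) it was 1 with DESeq2 and 0 to 1 with single libraries left out. At 3dpc (0) it was 1 with the sex score, 5 without 3 libraries (those that stood apart and NT 2dpc replicate 3), 2 in the fit of the groups alone and 1 with DESeq2. At 4dpc (5) it was 1 to 5 with single libraries left out. For the joint test (1) it was 2 without the 3 libraries and 3 with DESeq2. The cause of these moves was not tested where none is given.

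Some values that had missed the threshold changed sign. With the sex score, Gadd45b in SSRP1KO 1dpc against no crush was -0.52, and Gadd45a in SSRP1KO against NT was -0.35 without crush and 0.13 at 1dpc. Without the 3 libraries, Gadd45a was 0.13 at 2dpc. With single libraries left out, Cdkn1a in SSRP1KO against NT at 2dpc ran from -0.11 to 0.38, Gadd45a without crush from -0.047 to 0.25, and Plk2 in SSRP1KO 4dpc against no crush from -0.0041 to 0.18. Single values are followed for the 109 pairs of gene and comparison that were called or are quoted. Of the other 101, 54 took the other sign somewhere, none above 0.773 in absolute log2 fold change.

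Replicate numbers did not pair the libraries: over 117 same-numbered pairs across groups the correlation of deviations ran from -0.247 to 0.215 and was over 0.1 in 7. The replicate block moved no other count of the 10 genes by over 1.5 times. Scaling by plain library totals moved 12 of 100 group levels by over 1 SD. At 2dpc Gadd45b rests on few reads in NT replicate 3 (3 counts) and SSRP1KO replicate 5 (14 counts), and the part of depth in this was not tested.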

Other observations

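Of 15 tested genes of repair and metabolism that p53 activates, 3 rose and 2 fell at 4dpc in NT, where 27.2% of all genes were called. In SSRP1KO at 4dpc 0 rose and 0 fell, where 13.1% of all genes were called. The median log2 fold change of the list was -0.0764 in SSRP1KO and 0.0399 in NT. Xpc, a sensor of damaged DNA in nucleotide excision repair, rose by 0.87 ± 0.23 in NT (SE, edgeR adjusted p = 0.00435). Rrm2b, the p53-induced subunit of ribonucleotide reductase, rose by 0.47 ± 0.15 (adjusted p = 0.0157). Gls2, a mitochondrial glutaminase, fell by 1.61 ± 0.28 (adjusted p = 5.7e-05), and Rev3l, the catalytic subunit of a translesion polymerase, fell by 0.50 ± 0.18 (adjusted p = 0.0338).

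Of 11 tested relatives of Btg2 and of the polo-like kinases, 2 were higher at 4dpc in SSRP1KO, where 13.1% of all genes were called, and 4 were higher and 1 lower in NT, where 27.2% were. Plk4, the kinase of centriole duplication, rose by 1.54 ± 0.28 in NT (adjusted p = 0.00011), and Plk5, a brain-expressed member without a full kinase domain, fell by 1.70 ± 0.58 (adjusted p = 0.0289). Between the arms, over the 5 times, the 2 genes differed in opposite directions: Plk5 was higher in SSRP1KO by 1.02 ± 0.25 (adjusted p = 0.00496), and Plk4 gave -0.56 ± 0.13 (adjusted p = 0.0023).

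On the mean over the 5 times, genes of the pathway that were higher in SSRP1KO than in NT included Trp53i11, by 0.38 ± 0.07 (adjusted p = 0.000478), Gdf15, by 0.78 ± 0.27 (adjusted p = 0.0437), Btg1, by 0.30 ± 0.10 (adjusted p = 0.0408), and Gls2, by 0.47 ± 0.12 (adjusted p = 0.00692). The Gdf15 mean includes its large difference without crush, which missed the threshold with the sex score as a covariate (edgeR adjusted p = 0.128). Genes that were lower included Ddit3, at -0.61 ± 0.11 (adjusted p = 0.000418), Klf6, at -0.34 ± 0.08 (adjusted p = 0.00339), the acetyltransferase gene Crebbp, at -0.25 ± 0.06 (adjusted p = 0.00227), and the p53 ubiquitin ligase gene Huwe1, at -0.28 ± 0.07 (adjusted p = 0.00909). The stress kinase genes Mapk10 and Mapk8, which encode JNK proteins, gave -0.36 ± 0.10 (adjusted p = 0.00889) and -0.20 ± 0.07 (adjusted p = 0.0274).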
